A study of Anas platyrhynchos with 6 samples.

Results

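The results describe 58 annotated genes of duck liver that were expressed at a moderate level and stood clearly higher in high ammonia than in low ammonia. They were chosen by their own measured values in all 6 libraries. The mean had to lie from 10 to under 1000 FPKM (counts scaled to an exon length of the gene and to the total of the library). The lowest of the high ammonia libraries had to be at least 1.5 times the highest of the low ammonia libraries. Of 16450 annotated genes in a table of 23440, 4962 lay in that range of means and 58 met both conditions. The lowest high ammonia value divided by the highest low ammonia value is called the separation ratio here.

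Livers came from Shanma laying ducks (Anas platyrhynchos, variety domestica), and 3 libraries were made per group. Libraries are numbered within their own group, and an equal number in high and low ammonia does not mark a pair. One group was housed at 75 ± 5 ppm ammonia (high ammonia) and the other at 5 ± 5 ppm (low ammonia). The 176 ducks of the study were picked at an age of 150 days and kept in these atmospheres for 30 days, between day 200 and day 230, on 1 diet. Each atmosphere had a room of its own, so room and ammonia cannot be told apart, and the labels do not say whether each library was 1 bird. The recovered total counts ran from 13415827 to 20491048 in high ammonia and from 16516390 to 23584934 in low ammonia.

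Ammonia is the gas that forms when bacteria break down the uric acid in droppings, and it irritates airways and eyes. In the body the liver takes ammonia up by fixing it in glutamine, and birds send that nitrogen on into purines and uric acid, the form in which they excrete it. In a hen or duck in lay the same organ also makes the yolk proteins and lipoproteins under oestrogen. Which of these functions the 58 genes serve is not stated here. The deposited table gives Ensembl identifiers only, 0 of them paired with a symbol in the RefSeq table at hand (26024 genes), and the labelled tissue could therefore not be checked against hepatocyte markers either. For the same reason 2 genes are given by identifier and the others by exon length. Exon length here is the length by which FPKM was divided, recovered from the FPKM values and known up to a common factor. In newly assembled genes it was the exon bases of a transcript, averaged over the transcripts of the gene. Whether it is such an average in annotated genes was not tested.

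All 58 genes had a low ammonia level that could be measured. The smallest recovered count among them was 28 in a single library and the largest was 59368. Ratios of group means (high over low ammonia) ran from 1.62 to 16.6 with a median of 2.74, against a median of 0.938 over the 4962 genes of the range. By this ratio 7 of the 58 genes were below 2-fold, 30 between 2-fold and 3-fold, 13 between 3-fold and 5-fold, and 8 above 5-fold. In 25 of them every high ammonia library was at least 2-fold above every low ammonia library, and in 7 at least 3-fold. These figures describe the choice of the genes, since the rule used the same values. In liver tissue as a whole, more transcript per cell and more cells that carry the transcript cannot be told apart.

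**Figure D1:**
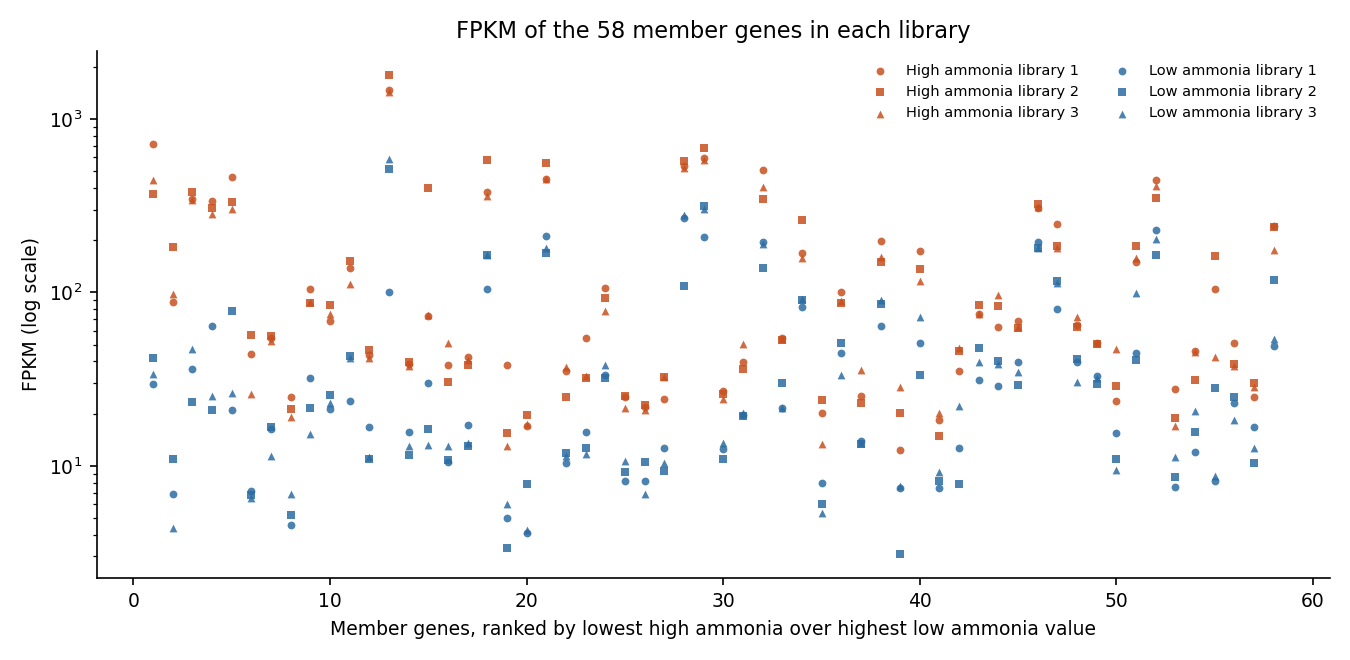
Each column of points is 1 of the 58 genes, ranked from left to right by separation ratio, and each point is its FPKM in 1 library on a log scale, with high ammonia in orange and low ammonia in blue. The orange points lie above the blue points in every column, as the rule requires, by 8.80-fold in the gene furthest to the left and by 1.501-fold in the one furthest to the right.

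The gene with the largest separation ratio was ENSAPLG00000009870, with 2544 bases of exon. It stood at 716, 369 and 443 FPKM in high ammonia libraries 1, 2 and 3, against 29.8, 41.9 and 33.7 FPKM in low ammonia libraries 1, 2 and 3. The low ammonia values were close together, and high ammonia library 1 was far above the other two of its group. Group means were 509 ± 183 FPKM in high ammonia and 35.1 ± 6.18 FPKM in low ammonia (SD, n = 3 each), a ratio of 14.5. Behind these values were 12579 to 37308 counts per library in high ammonia and 1414 to 2288 in low ammonia.

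The gene of 3490 bases had the highest ratio of group means, at 16.6. It stood at 88.1, 182 and 98.5 FPKM in high ammonia, against 6.88, 10.9 and 4.37 FPKM in low ammonia. Library 2 was the highest of its group on both sides, though the equal number marks no pair. The gene of 1038 bases stood at 345, 379 and 339 FPKM in high ammonia, against 36.0, 23.3 and 47.2 FPKM in low ammonia. Its high ammonia libraries were nearly level, with a coefficient of variation (CV) of 6.05%, while its low ammonia libraries had a CV of 33.6%.

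A similar contrast of an even high ammonia group and an uneven low ammonia group was seen in the gene of 461 bases. That gene stood at 339, 306 and 283 FPKM in high ammonia, against 64.0, 21.0 and 25.2 FPKM in low ammonia, where library 1 was the high one. The gene of 2011 bases stood at 459.7, 331 and 304 FPKM in high ammonia, against 21.0, 78.0 and 26.4 FPKM in low ammonia, where library 2 was the high one. Which low ammonia library came closest to the high ammonia group thus differed from gene to gene.

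The next 5 genes by separation ratio were less abundant. The gene of 1106 bases stood at 44.4, 56.8 and 26.0 FPKM in high ammonia, against 7.13, 6.78 and 6.51 FPKM in low ammonia. Here the low ammonia libraries were the even ones, with a CV of 4.54% against 36.6% in high ammonia. The gene of 1566 bases stood at 54.5, 56.4 and 52.6 FPKM in high ammonia, against 16.3, 16.7 and 11.4 FPKM in low ammonia. At 24.8, 21.1 and 19.2 FPKM in high ammonia, against 4.54, 5.18 and 6.86 FPKM in low ammonia, the gene of 2346 bases was the least abundant of the leading 10. For the gene of 1501 bases the values were 104, 86.7 and 87.6 FPKM in high ammonia, against 32.3, 21.6 and 15.3 FPKM in low ammonia. The gene of 1389 bases stood at 68.1, 84.7 and 75.5 FPKM in high ammonia, against 21.4, 25.6 and 23.1 FPKM in low ammonia, with a ratio of means of 3.26. In these 5 genes the groups lay apart by separation ratios of 2.66 to 3.64.

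Among the most abundant of the 58 genes the ratios were mostly smaller than in the genes just described, which were listed for large separation ratios. The median ratio of means of the 58 genes was 2.88 from 10 to under 30 FPKM and 2.26 from there to under 100 FPKM. It was 2.98 from 100 to under 300 FPKM and 2.48 from 300 to under 1000 FPKM, with no steady fall. ENSAPLG00000001779, with 402 bases of exon, had the highest mean, 985 FPKM over the 6 libraries. It stood at 1471, 1800.1 and 1435 FPKM in high ammonia, against 100.2, 514 and 591 FPKM in low ammonia. Low ammonia library 1 was far below the other two of its group, so that the mean of 402 ± 264 FPKM in low ammonia had a CV of 65.7%, against 1568 ± 201 FPKM and 12.8% in high ammonia (SD, n = 3 each). The ratio of means was 3.90 and the separation ratio 2.43.

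After it came the gene of 1745 bases, at 597, 682 and 578 FPKM in high ammonia, against 208, 314 and 301 FPKM in low ammonia. The gene of 2562 bases stood at 538, 569 and 519.6 FPKM in high ammonia, against 269, 109 and 279 FPKM in low ammonia. Low ammonia library 1 was the lowest of its group in the first of these genes and low ammonia library 2 in the second. The gene of 910 bases stood at 454, 555 and 452 FPKM in high ammonia, against 212, 169 and 181 FPKM in low ammonia, a ratio of means of 2.60. For the gene of 1311 bases the values were 447, 348 and 409.6 FPKM in high ammonia, against 228, 165 and 203 FPKM in low ammonia, and for the gene of 1100 bases they were 508, 347 and 404 FPKM in high ammonia, against 196, 138 and 189.8 FPKM in low ammonia. Both of these had their highest value in library 1 and their lowest in library 2 of each group, though equal numbers mark no pair. The gene of 1693 bases had the smallest difference of the 10 most abundant ones, at 305, 323 and 312 FPKM in high ammonia, against 195, 180.4 and 179.7 FPKM in low ammonia. With a ratio of means of 1.69, it was also among the most even within the groups, with CVs of 2.93% in high ammonia and 4.72% in low ammonia.

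The longest of the 58 genes, with 7676 bases of exon, gave the most counts. It stood at 377, 577 and 358 FPKM in high ammonia, against 104, 164 and 164 FPKM in low ammonia, a ratio of means of 3.04. In counts this gene made up 0.289%, 0.443% and 0.275% of the high ammonia libraries, against 0.0798%, 0.126% and 0.126% of the low ammonia libraries, with library 2 ahead of the others in high ammonia. The 5 genes with the largest share of counts, which have 7676, 2562, 2544, 1745 and 2011 bases, held 50.6% of the counts of all 58 genes in high ammonia, and the 10 largest held 67.3%.

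Summed over the 58 genes, 1.11%, 1.16% and 1.04% of all FPKM fell to them in high ammonia libraries 1, 2 and 3, against 0.320%, 0.351% and 0.368% in low ammonia libraries 1, 2 and 3. The group means were 1.10% ± 0.0615 in high ammonia and 0.346% ± 0.0243 in low ammonia (SD, n = 3 each), a ratio of 3.18. In counts the shares were 1.55% ± 0.142 in high ammonia and 0.520% ± 0.0457 in low ammonia, a ratio of 2.99. Without the most abundant gene the ratio of FPKM shares was 3.05. The direction follows from the choice of the genes. Within each group the 3 libraries were close to each other, although single genes varied much more.

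**Figure D2:**
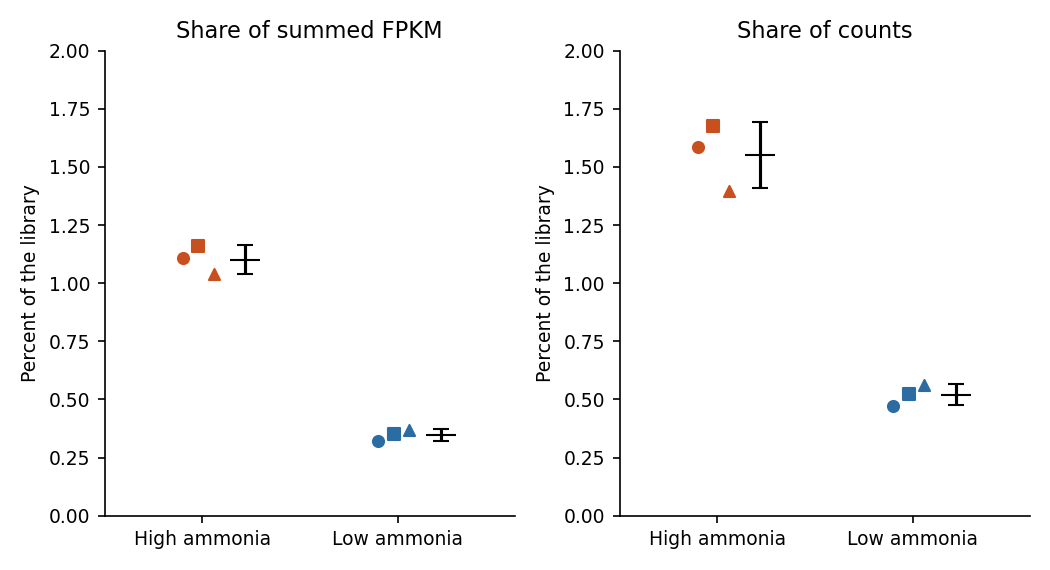
The left panel plots the percentage of summed FPKM and the right panel the percentage of counts that fell to the 58 genes, 1 point per library, with high ammonia left of low ammonia, and the bars give the mean and SD (n = 3). High ammonia libraries lie at 1.04% to 1.16% of FPKM, and low ammonia libraries at 0.320% to 0.368%.

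How far the genes varied within a group differed widely. The median CV of the 58 genes was 15.2% in high ammonia and 20.3% in low ammonia, against 13.0% in high ammonia and 17.6% in low ammonia over the 4962 genes of the range. The CV was larger in high ammonia for 22 genes and larger in low ammonia for 36, so 37.9% had the larger spread in high ammonia, against 34.6% of the range. Greater spread in low ammonia was thus the commoner case both in the 58 genes and in the range. The gene of 405 bases was the most variable in high ammonia, at 72.9, 402 and 73.6 FPKM, against 30.2, 16.2 and 13.2 FPKM in low ammonia. High ammonia library 2 lay far above the other two of its group, and the ratio of means was 9.21 with it and 3.69 without it. The most even gene in high ammonia was that of 3957 bases, at 51.0, 50.5 and 51.0 FPKM, against 32.8, 29.4 and 32.0 FPKM in low ammonia, which also gave the smallest ratio of means among the 58. In low ammonia the gene of 2011 bases described above had the largest CV, 75.3%, closely followed by the gene of 794 bases. The gene of 794 bases stood at 104, 162 and 42.4 FPKM in high ammonia, against 8.22, 28.1 and 8.77 FPKM in low ammonia. Library 2 was the highest in each group, though the equal number marks no pair. The most even gene in low ammonia had 783 bases, at 25.2, 23.1 and 35.5 FPKM in high ammonia, against 13.8, 13.4 and 13.5 FPKM in low ammonia.

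**Figure D3:**
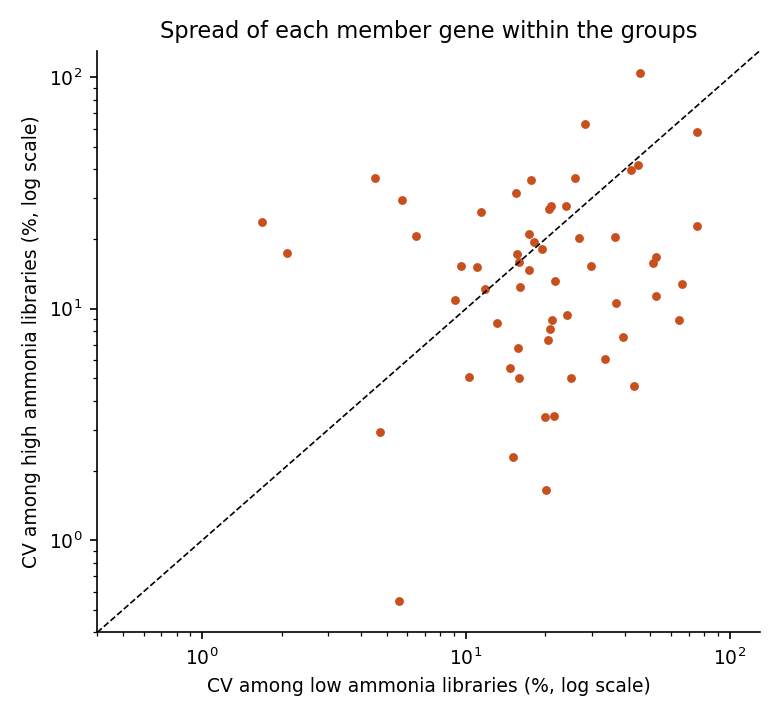
Each point is 1 of the 58 genes, with its CV among the 3 low ammonia libraries on the horizontal axis and among the 3 high ammonia libraries on the vertical axis, both on log scales, and the dashed line marks equal CVs. Points scatter widely on both sides of the line, 22 above it and 36 below it.

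No single library set the high or the low end for all genes. In high ammonia the top value came from library 1 in 23 genes, library 2 in 24 and library 3 in 11, much as in the range, where these shares were 36.3%, 44.0% and 19.6%. The bottom value in high ammonia, which enters the separation ratio, came from library 3 in 28 genes, and it did so in 49.0% of the range. In low ammonia the top value, the other term of that ratio, came from library 1 in 19 genes, library 2 in 19 and library 3 in 20, against 15.8%, 49.5% and 34.7% of the range. Low ammonia library 2 was thus the highest of its group in 32.8% of the 58 genes. The highest low ammonia value is a term of the rule, so these shares are a description.

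Exon lengths of the 58 genes lay close to those of the range. The 58 genes had a median of 1103 bases of exon, with quartiles of 794.5 and 1891 and extremes of 237 and 7676. Over the range the median was 1190 bases with quartiles of 639 and 1921. Below 600 bases of exon were 10 of the 58 genes (17.2%), against 22.9% of the range, and above 3000 bases were 6 (10.3%), against 9.15%. FPKM is a density per base, so short genes such as that of 237 bases, with 132 to 218 counts per low ammonia library, rest on few counts for their FPKM.

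By mean level, the rule was met by 23 of 2739 genes from 10 to under 30 FPKM (0.840%) and by 17 of 1450 from 30 to under 100 FPKM (1.17%). It was met by 13 of 531 genes from 100 to under 300 FPKM (2.45%) and by 5 of 242 from 300 to under 1000 FPKM (2.07%). The median log2 ratio of means of all genes in these classes was -0.16, -0.03, 0.04 and 0.05, so that the less abundant classes as a whole lay slightly lower in high ammonia. The difference between the classes in the share of genes chosen was not tested. The same rule turned round, with every low ammonia library at least 1.5 times every high ammonia library, was met by 53 genes of the range, so that 52.3% of the genes lying apart by this margin were higher in high ammonia. After each library was divided by its median-ratio factor, which raised the median log2 ratio of means in the range by 0.15, 93 genes were higher and 38 lower by the rule, and 71.0% were higher. Of the 58 genes, 55 met the rule after this scaling.

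**Figure D4:**
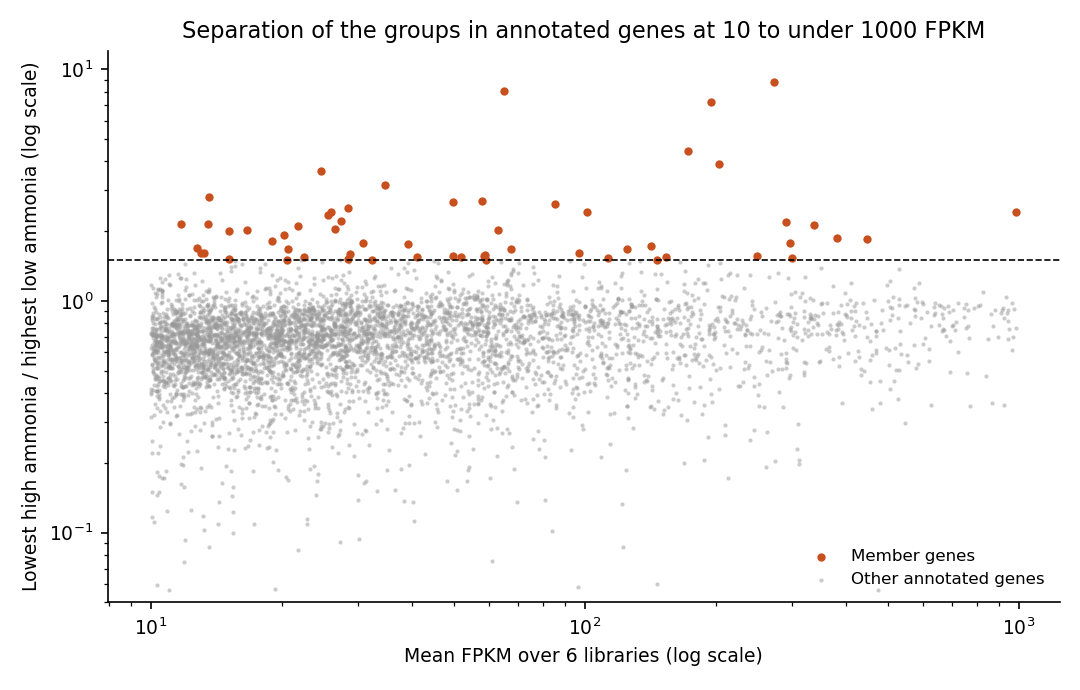
Each point is 1 annotated gene with a mean from 10 to under 1000 FPKM, with the mean over 6 libraries on the horizontal axis and the separation ratio on the vertical axis, both on log scales. The 58 genes, in orange, lie on or above the dashed line at 1.5, mostly close to it, and 20 genes below 0.05 on the vertical axis are not drawn.

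At the threshold the genes passed over into others without a gap. The 3 genes just inside had separation ratios of 1.507, 1.501 and 1.501, and the 3 just outside had 1.497, 1.495 and 1.494. The last gene inside, of 1438 bases, stood at 241, 239.7 and 177 FPKM in high ammonia, against 48.8, 118 and 53.7 FPKM in low ammonia. Just outside it was a gene of 2228 bases, at 25.3, 41.4 and 23.6 FPKM in high ammonia, against 13.2, 14.1 and 15.8 FPKM in low ammonia. In 411 of the 4962 genes, 8.28%, the groups did not overlap and high ammonia was the higher one, and the 58 genes are those of the 411 with the required margin.

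In the test of high against low ammonia across all genes (limma, Benjamini-Hochberg adjusted p below 0.05, n = 3 each), 48 of 11717 genes tested rose, 0.410%. Among annotated genes from 10 to under 1000 FPKM it was 27 of 4961, 0.544%, and these 27 were all among the 58. The other 31 of the 58 did not pass. Nothing is read from this count, since the rule used the same contrast. The 27 that passed had separation ratios from 1.77 to 8.80, and the 31 that did not had 1.501 to 2.43. Without high ammonia library 1, 2 or 3, 3, 9 and 4 of the 58 passed, beside 5, 18 and 8 of all 11717 genes that rose in these fits. Without low ammonia library 1, 2 or 3 it was 16, 11 and 7 of the 58, beside 28, 21 and 20 of all genes. Ratios of means among those that did not pass reached 9.21, in the gene of 405 bases. The most abundant of the 58 genes, that of 402 bases, was also among those that did not pass.

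The rule was also applied to 2 libraries of each group. The remaining high and low ammonia library were then compared for the genes so chosen. This was done for each of the 9 pairs that can be left out. Each time the mean was taken on the 4 libraries used, and 4858 to 5044 annotated genes lay in the range. The 4 libraries chose from 107 to 145 genes, more than the 58 because fewer values have to comply. In the pair left out, from 75.7% to 96.6% of them were higher in the high ammonia library, against 28.2% to 57.6% of all annotated genes of the range. At least 1.5-fold higher in the left-out pair were from 50.3% to 70.9% of the genes chosen, against 7.22% to 12.7% of the range. Their median ratio in the left-out pair was between 1.501 and 1.93, below the medians of 2.28 to 2.47 in the libraries that chose them. The lowest of these shares, 50.3%, came with high ammonia library 3 and low ammonia library 2 left out, and the highest, 70.9%, with high ammonia library 3 and low ammonia library 1. The 9 readings share libraries and genes, so they are not independent of each other. By their choice on all 6 libraries, the 58 genes are at least 1.5-fold higher in every left-out pair. They are chosen again on 4 libraries wherever their mean stays in the range, and then add to both shares in advance. Of the genes chosen, 71 to 88 met the 1.5-fold margin in the left-out pair, and up to 58 of these were fixed in advance. The shares are therefore no test of the 58 genes.

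**Figure D5:**
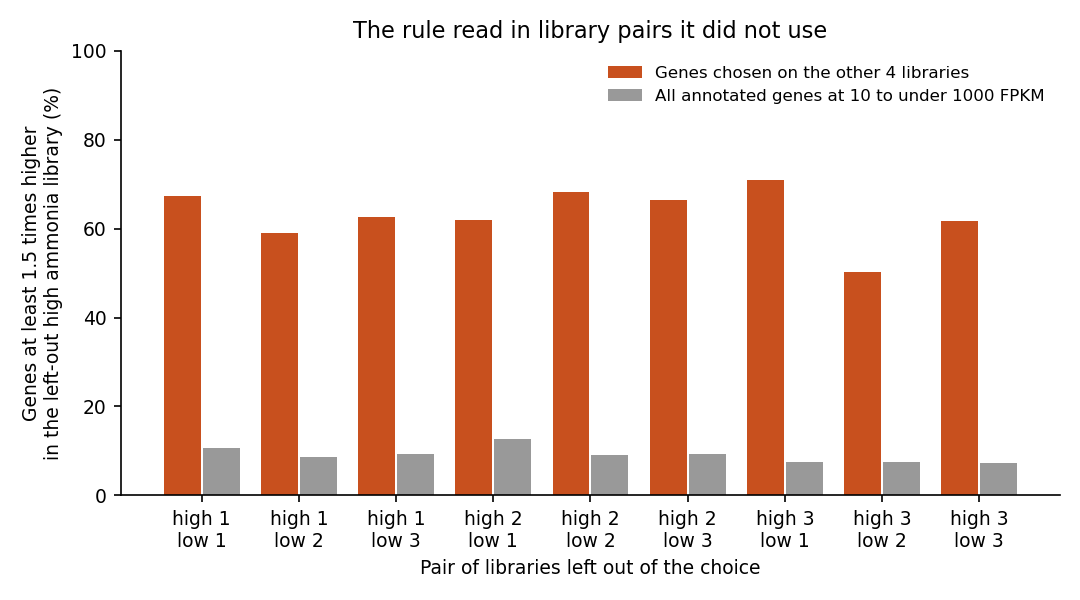
For each of the 9 pairs of 1 high ammonia and 1 low ammonia library, the orange bar gives the percentage of genes chosen on the other 4 libraries that were at least 1.5 times higher in the left-out high ammonia library, and the grey bar gives the same for all annotated genes in the range. Orange bars lie between 50.3% and 70.9%, and grey bars between 7.22% and 12.7%. The range was set by the mean of the 4 libraries used. Up to 58 of the genes behind each orange bar had been chosen on all 6 libraries and pass in advance, so the bars are no test of them.

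With 1 library left out, the rule on the other 5 was met by 78, 78 and 85 genes without high ammonia library 1, 2 or 3, and by 88, 101 and 78 genes without low ammonia library 1, 2 or 3. Of the genes so chosen the left-out library itself also met the 1.5-fold margin in 57, 58 and 58 for the high ammonia libraries and in 58, 60 and 59 for the low ammonia libraries. Such genes meet the margin in all 6 libraries, so these counts had to lie near 58. The range here was set by the mean of the 5 libraries used and held 4870 to 5048 annotated genes. Among all annotated genes of this range the left-out library met the margin in 2.78%, 3.20% and 2.46% for the high ammonia libraries and in 4.16%, 4.05% and 4.20% for the low ammonia libraries. The libraries of the other group had helped to choose the genes by the margin, while the range rests on the mean alone. The counts and these shares are therefore not like for like. Low ammonia library 2 kept the most genes out, 41 of 101. Its median deviation from the group mean was 0.09 on the log2 scale over the 4962 genes in range by all 6 libraries, the highest of the 3 low ammonia libraries. Its part in the number of genes chosen was not tested.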

How the data were processed

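RNA was isolated with Trizol from liver frozen on dry ice and made into Illumina TruSeq libraries, per the labels' protocols. The authors deposited FPKM, 1 column per library, and a table of exon positions of newly assembled genes (unit other, counted from 1). For the aligner, counter and build: not given in the sources used here. The kit does not mark strand, so reads of genes that overlap on opposite strands cannot be told apart. Step sizes of FPKM in newly assembled genes gave the library totals, and 100% of their values above 0 came out whole within 0.01. The shortest whole length that fits all 6 values was taken as exon length. In the exon table, exon bases were summed per transcript and averaged over the transcripts of a gene. Run on newly assembled genes, this search found that average in 97.5% and a divisor of it in 2.53%. Intervals are not given, and 3 counts in 1 kb of exon equal 0.127 to 0.224 FPKM (counting error only).

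Replicates differed beyond sampling noise (chi-square per degree of freedom at least 28.5). No label calls them separate birds, so that a p-value measures the spread of these libraries alone, and this may be technical. limma 3.58.1 (R 4.3.3), with a variance trend, tested log2(FPKM + 1), which understates changes of low genes, in genes with at least 1 FPKM in 3 libraries. It was checked on simulated data with the same relative spread beyond counting noise for all genes. That check does not cover uneven spread as in these data. Python 3.11.15 and pandas 2.3.3 did the rest. The genes, lists and rules were chosen with earlier results of these data known. Planned lists by symbol were not used, since no identifier matched. By identifier are given the gene with the largest separation ratio and the one with the highest mean. By length are given the other leading genes by ratio and by mean, up to 10 each, and the extremes of spread within groups. Of 3 planned genes on each side of the threshold, the last inside and the first outside are given by length. The genes of 794 and 237 bases were picked after their values were seen.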

Additional observations from a re-analysis of the deposited data

How the results depend on the processing

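Of 58 genes meeting the rule, a narrower margin gave 138, a margin of 2 in place of 1.5 gave 25, and median-ratio scaling gave 93. Means from 5 FPKM gave 72, no upper limit 63, and FPKM rescaled to equal sums, an alternative chosen after seeing the data, 66. Leaving out 1 library gave from 78 to 101. The ratio of summed FPKM shares, 3.18, ran from 3.06 to 3.28 without 1 library. The same 58 genes, chosen with the left-out library too, were summed each time, so the direction was given in advance. Of the 58 genes, 27 passed limma at an adjusted p below 0.05. With no filter on low values 10 passed, beside 15 of all genes that rose in place of 48. Called in either direction were 24 of all genes in place of 92. In the other settings with all 6 libraries between 26 and 37 of the 58 passed. Beside these, 57 of 7776 genes tested rose with at least 5 FPKM in 3 libraries, and 44 to 74 of 11717 in the rest. Without high ammonia library 1, 2 or 3, the fit passed 3, 9 and 4 of the 58, and without low ammonia library 1, 2 or 3 it passed 16, 11 and 7. Beside these, 5 to 28 of all genes rose and 8 to 56 were called in either direction. Fits without 1 library had 5 libraries in place of 6, and the fit with no filter had more genes tested. Why the numbers moved was not tested. No paired analysis was possible because high and low ammonia have just 1 number in common in the library titles. Depth limits low genes: the smallest count in the 58 genes was 28.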

Other observations

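Among 330 newly assembled genes with a mean from 10 to under 1000 FPKM, 4 met the same rule, beside 58 of 4962 annotated genes. The one with the largest separation ratio, 13.6, lay at 91210 to 91960 on the plus strand of scaffold KB743167.1. Its values were 74.5, 70.4 and 77.0 FPKM in high ammonia, against 5.19, 0.578 and 4.79 FPKM in low ammonia, a ratio of means of 21.0, above that of any of the 58 annotated genes. Low ammonia library 2 was far below the others of its group. The low ammonia values of this locus rest on 8 to 79 counts per library, with a CV of 72.6%, so its ratio has an uncertain base. Another lay at 188306 to 229577 on the plus strand of KB743811.1, where 12 transcripts had at most 24 exons each. It stood at 34.1, 21.8 and 28.7 FPKM in high ammonia, against 5.27, 2.70 and 13.3 FPKM in low ammonia. A gene with 2 exons lay at 1 to 554 on the minus strand of KB811758.1, at 86.9, 135 and 76.1 FPKM in high ammonia, against 29.1, 39.1 and 17.8 FPKM in low ammonia. The remaining one lay at 2 to 1584 on the plus strand of KB820363.1, at 53.5, 57.8 and 39.3 FPKM in high ammonia, against 13.7, 20.4 and 13.8 FPKM in low ammonia. Separation ratios of these 3 were 1.63, 1.95 and 1.92, and the values are a description, since the rule chose the genes on them. Positions are those of the deposited exon table, whose build is not named, and whether these loci overlap any of the 58 genes was not analysed here.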
